A study of Mus musculus with 4 samples.

Results

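Chemokines are small secreted proteins that direct the migration of leukocytes through receptors on their surface, and Il6 and Il1b encode secreted cytokines of inflammation. The 10 genes described here are Cxcl1, Cxcl2, Cxcl12, Ccl2, Ccl3, Ccl4, Ccl5, Ccl7, Il6 and Il1b, taken by name from the 31053 features counted in mouse pituitary cells. All 10 were present in the count tables and none was used to sort cells into types. The study profiled single cells of the pituitary by droplet sequencing of transcript 3′ ends, with 1 library in each of 4 groups: wild-type (WT) mice at 14 weeks, p25OE mice at 14 weeks, WT mice at 40 weeks and p25OE mice at 40 weeks. Where 4 values follow each other, they stand in this order of libraries. The p25OE mice overexpressed p25, a truncated and persistently active form of the Cdk5 activator encoded by Cdk5r1, and the controls were WT littermates. Mice of every group carry the strain label C57BL/6- B6;CBA-BiTg. The promoter that drives p25, the number and sex of the animals behind each library, and which libraries shared one of the 2 experimental runs were not given in the sources used here. With 1 library per group, genotype cannot be told apart from animal, dissociation or run, so no test was made. Ratios are given with exact 95% intervals that cover counting error only.

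The CXC ligands Cxcl1 and Cxcl2 act on the receptor Cxcr2 and are known for attracting neutrophils. Cxcl12 acts on Cxcr4 and is made steadily by stromal cells. Ccl2 and Ccl7 attract monocytes through Ccr2, while Ccl3, Ccl4 and Ccl5 attract monocytes and T cells. Il1b encodes interleukin-1 beta, a product of activated macrophages, and Il6 encodes interleukin-6, which in the pituitary is known from folliculostellate cells. Many of these genes are switched on by the transcription factor NF-κB. Melanotrophs are the endocrine cells of the intermediate lobe that process Pomc to melanocyte-stimulating hormone.

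Cxcl1 and Cxcl2 are neighbours on chromosome 5 of GRCm38 (GENCODE M21), where Cxcl1 spans 90891241 to 90893115 and Cxcl2 spans 90903871 to 90905938, both on the + strand. Il6 lies on the same chromosome from 30013114 to 30019981. The 5 Ccl genes lie on chromosome 11, with Ccl2 from 82035571 to 82037453 and Ccl7 from 82045712 to 82047525, and with Ccl5 from 83525778 to 83530518, Ccl3 from 83647844 to 83649355 and Ccl4 from 83662584 to 83664683. Cxcl12 lies on chromosome 6 from 117168535 to 117181367 and Il1b on chromosome 2 from 129364570 to 129371139. All 10 are protein-coding. Ccl2 overlaps Gm17268 and Il1b overlaps Il1bos on the opposite strand, and whether counting used strand is not given in the sources used here.

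RefSeq sequences of the 250 bases before the RefSeq start (GRCm38.p6) were matched for Cxcl1, Cxcl2, Cxcl12, Ccl3, Il6 and Il1b. For Cxcl1 and Cxcl2 that start lies further downstream than the GENCODE start given above, and distances are counted from the RefSeq start. For Il6 only the 84 bases around the match are printed. A common form of the NF-κB motif, the letters GGGA followed by any base and then TTTCC, was searched on both strands, with no other motif searched. They were found before the start of Cxcl1, Cxcl2 and Il6, and in 117 of all 32851 promoters searched (0.356%). The 3 upstream sequences are shown because they held a match. Those of Cxcl12, Ccl3 and Il1b held none and are not printed. Capitals mark the match, on the + strand, which lies 71 to 62 bases before the start in Cxcl1 (chr5:90890995-90891244), 97 to 88 bases before it in Cxcl2 (chr5:90903649-90903898) and 44 to 35 bases before it in Il6 (chr5:30013030-30013113). A match is a description of the letters and not evidence of binding.
Cxcl1: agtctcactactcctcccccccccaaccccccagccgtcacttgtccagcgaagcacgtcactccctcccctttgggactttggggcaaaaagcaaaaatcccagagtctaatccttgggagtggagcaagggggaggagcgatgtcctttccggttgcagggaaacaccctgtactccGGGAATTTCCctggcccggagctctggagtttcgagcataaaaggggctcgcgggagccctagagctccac
Cxcl2: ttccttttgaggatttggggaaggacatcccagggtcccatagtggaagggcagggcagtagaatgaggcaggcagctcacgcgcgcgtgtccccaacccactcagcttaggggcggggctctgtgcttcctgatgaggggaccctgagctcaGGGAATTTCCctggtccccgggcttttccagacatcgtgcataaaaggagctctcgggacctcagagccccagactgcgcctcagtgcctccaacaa
Il6: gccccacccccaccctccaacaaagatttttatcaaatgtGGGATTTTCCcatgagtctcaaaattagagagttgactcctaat

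Between 6579 and 7927 cells per library were kept, and the libraries held 53714895 to 95242353 UMIs (unique molecular identifiers, here called molecules) before the cell filters. Cells were sorted into classes by a gate on marker genes. The melanotroph gate held 554, 1793, 637 and 6411 cells, and its markers Pax7, Oacyl, Pcsk2 and Pomc were among its 10 leading genes. Its cells are melanotroph-like and are called melanotrophs for short, as are the other classes by their names. Cdk5r1 read 15.03, 25.3, 13.9 and 17.0 CPM (counts in each 1000000 of the class) in melanotrophs; a 3′ count does not tell the transgene from the mouse gene. The p25OE 40 weeks library held 170 macrophage-gated cells but only 10 gated as T or NK cells and 2 as fibroblasts, so classes are compared only where both libraries held at least 50 cells. The 2 libraries of 40 weeks shared 85 cell barcodes, 1.1% of the smaller one.

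Cxcl1 read 0.742 CPM in melanotroph-gated cells of WT 14 weeks (8 UMIs) and 18.0 CPM in those of p25OE 14 weeks (334 UMIs). At 40 weeks it read 0.479 CPM in WT (2 UMIs) and 10.5 CPM in p25OE (572 UMIs). Both p25OE libraries stood above both WT libraries. After scaling the summed counts by the median ratio over genes, Cxcl1 was 20.9-fold higher in p25OE at 14 weeks (interval 10.5 to 48.9) and 16.7-fold higher at 40 weeks (4.61 to 138). A gene was called higher or lower where its ratio was at least 2-fold and the interval left out 1. The interval at 40 weeks is wide because WT held 2 molecules.

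The Cxcl1 molecules were spread over many melanotrophs. In p25OE, 139 melanotroph-gated cells at 14 weeks and 407 at 40 weeks held at least 1 molecule, against 7 and 2 cells in WT. The highest single p25OE cell held 18 molecules at 14 weeks and 10 at 40 weeks, and 27 and 121 cells together held at least 50% of them. With each cell thinned to 1000 UMIs to even out depth, Cxcl1 was seen in 23 of 1783 p25OE cells at 14 weeks (1.29%, exact interval 0.819 to 1.93) and in 70 of 6306 at 40 weeks (1.11%, 0.866 to 1.4). It was seen in 0 of 548 WT cells at 14 weeks, which allows a share of up to 0.547% (3 counts of the total, and so for the other limits), and in 0 of 637 at 40 weeks, which allows up to 0.471%. Lactotrophs, the prolactin cells, were deeper than melanotrophs in p25OE 14 weeks (median 14616.5 against 8482 UMIs per cell). They held Cxcl1 in 0 of 967 thinned cells, which allows up to 0.31%, and read 0.479 CPM.

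Melanotrophs held most of the Cxcl1 of the p25OE libraries. They carried 74.7% of the 447 Cxcl1 molecules of p25OE 14 weeks and 83.9% of the 682 of p25OE 40 weeks, against 17.0% of 47 in WT 14 weeks and 6.45% of 31 in WT 40 weeks. Melanotroph-gated cells also made up a larger share of the p25OE libraries, 23.4% and 83.0% of cells against 8.42% and 8.04% in WT. They held 18559438 of the 77275454 UMIs of p25OE 14 weeks and 54346890 of the 60662506 of p25OE 40 weeks, with totals taken before the cell filters. At 40 weeks their share of the Cxcl1 molecules was thus not above their share of all UMIs.

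Outside melanotrophs, Cxcl1 was found in stem cells, the Sox2-positive cells of the pituitary, in the 3 libraries that held enough of them. They read 4.52 CPM in WT 14 weeks, 12.1 CPM in p25OE 14 weeks and 6.72 CPM in WT 40 weeks. The ratio at 14 weeks was 2.75 (interval 1.46 to 5.44; 15 and 34 UMIs), a higher call. Somatotrophs, the growth hormone cells, read 0.613 CPM in WT and 0.552 CPM in p25OE at 14 weeks, a ratio of 0.883. Corticotrophs, which share Pomc with melanotrophs, read 0 and 0.991 CPM. At 14 weeks the p25OE order ran from melanotrophs (interval 16.1 to 20.03 CPM) through stem cells (8.4 to 16.9 CPM, overlapping) and macrophages (3.38 CPM) to the other endocrine classes. At 40 weeks the p25OE macrophages read 25.1 CPM, from 17 UMIs in 8 of 170 cells, above the melanotrophs of the same library.

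**Figure D1:**
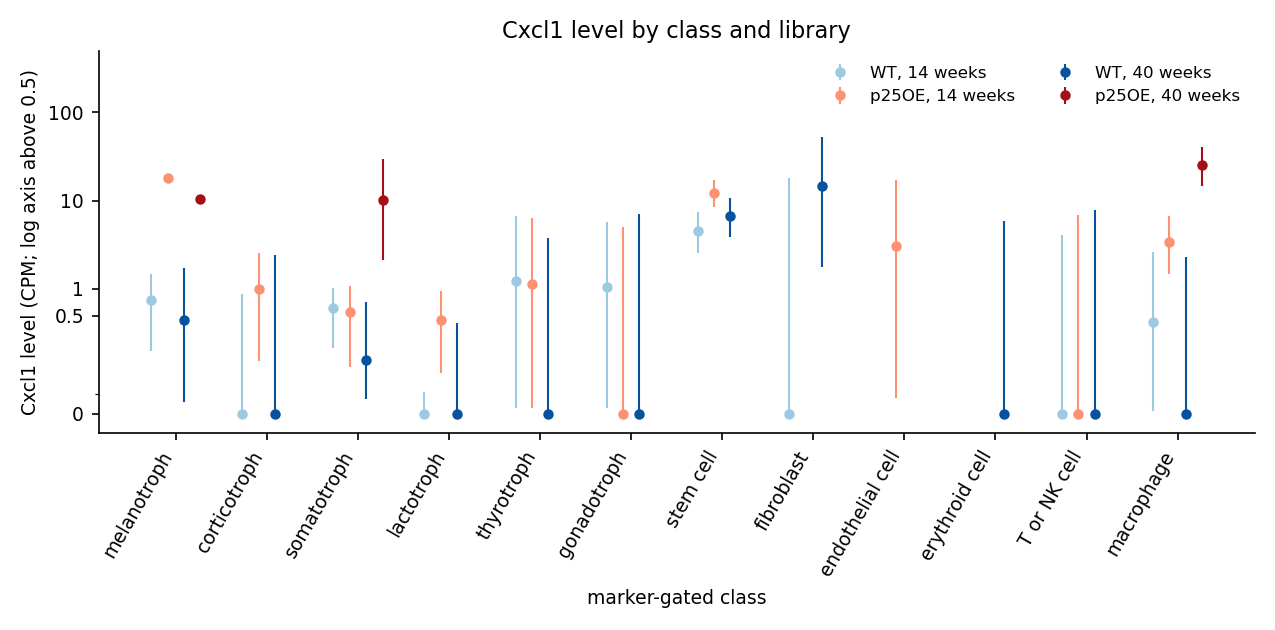
Cxcl1 level by class and library, as CPM of summed UMIs on an axis that is logarithmic above 0.5; bars are exact 95% counting intervals. Melanotroph-gated cells of both p25OE libraries (18.0 and 10.5 CPM) sit above those of both WT libraries (0.742 and 0.479 CPM). Somatotroph-gated cells of WT and p25OE read 0.613 and 0.552 CPM at 14 weeks, and 0.275 and 10.3 CPM at 40 weeks, the last from 3 UMIs.

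Within the melanotrophs of p25OE 40 weeks, Cxcl1 was detected in each of the 5 clusters that held most of them. It read 13.3 CPM in the cluster of 3114 cells, 6.67 CPM in that of 1834 cells, 10.8 CPM in that of 908 cells, 9.36 CPM in that of 308 cells and 24.4 CPM in that of 178 cells. The cluster of 1834 cells had the highest Pomc level, 239012 CPM against 63079 CPM in the cluster of 3114. Ccl7 ran the other way between these 2 clusters, at 9.51 and 2.24 CPM. The clusters were built from the most variable genes of these same data, so these values are descriptive.

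Melanotrophs with and without a Cxcl1 molecule were set side by side for the other members. After thinning, 0 of 23 Cxcl1-positive cells of p25OE 14 weeks held a molecule of another member, against 2.61% of the Cxcl1-negative cells. At 40 weeks the shares were 2.86% of 70 and 2.77%, so at this depth no difference was detectable. The immediate early gene Fos averaged 2.57 UMIs per 1000 in the positive and 1.72 in the negative cells at 14 weeks, and 1.40 and 1.03 at 40 weeks. Pomc averaged 65.0 and 114 UMIs per 1000 at 40 weeks, and 146 and 138 at 14 weeks.

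Among classes of at least 50 cells, Cxcl2 had its highest level in macrophages in all 4 libraries. Among smaller classes, 30 neutrophils of WT 40 weeks read 290 CPM and 40 monocytes or dendritic cells of p25OE 14 weeks read 389 CPM, both above the macrophages of their library. Macrophage-gated cells read 99.4, 380, 74.0 and 1282 CPM, so both p25OE libraries were above both WT libraries. They held 77.5, 75.4, 45.3 and 80.7% of the Cxcl2 molecules of those libraries. In macrophages Cxcl2 was 3.82-fold higher in p25OE at 14 weeks (interval 3.29 to 4.46) and 13.7-fold higher at 40 weeks (11.3 to 16.7), the widest ratio of any member with molecules in both macrophage sums at 40 weeks. Melanotrophs held 6 and 30 molecules at 14 weeks and 0 and 174 at 40 weeks. The melanotroph ratio was 2.51 (1.03 to 7.37) at 14 weeks and at least 3.39 at 40 weeks, against a floor of 3 counts over the group.

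Cxcl12 was highest in fibroblasts or stem cells, except in p25OE 40 weeks. Fibroblasts read 331 CPM in WT 14 weeks and 538 in WT 40 weeks, and stem cells read 67.2, 81.0 and 76.2 CPM in WT 14 weeks, p25OE 14 weeks and WT 40 weeks. The stem cell ratio at 14 weeks was 1.24, neither higher nor lower. The p25OE 40 weeks library held 41 Cxcl12 molecules in all, with 12 stem cells and 2 fibroblasts gated. Its 6411 melanotrophs held 15 molecules, as did the 637 of WT 40 weeks, and Cxcl12 was 17.1-fold lower in p25OE (ratio 0.0585, interval 0.0266 to 0.128). Markers of its source classes also read lower in these cells: the 5 fibroblast markers summed to 36.1 CPM in WT and 2.58 CPM in p25OE, and the 6 stem cell markers to 164 and 77.8 CPM, with none at 0; their part in the ratio was not tested. In melanotrophs at 14 weeks the ratio was 0.903, from 5 and 9 molecules. Cxcr4, its receptor, was 12.8-fold higher in p25OE melanotrophs at 14 weeks (interval 4.85 to 47.9; 4 and 102 UMIs) and at 40 weeks had a ratio of 0.409, neither.

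The CC ligands Ccl2, Ccl3, Ccl4 and Ccl7 and the cytokine Il1b had macrophages as their highest class in all 4 libraries, among classes of at least 50 cells. The 38 fibroblasts of p25OE 14 weeks read a higher level of Ccl2, 2118 CPM, with 335 of 342 molecules in 1 cell. Ccl2 read 554, 1658, 187 and 301 CPM in macrophages, with each p25OE library above the WT library of its age. Ccl4 read 779, 2822, 995 and 3227 CPM, and both p25OE libraries were above both WT libraries. Ccl3 read 894, 1816, 646 and 1469 CPM, Ccl7 130, 702, 126 and 224 CPM, and Il1b 778, 1051, 374 and 607 CPM. Per library, 8, 7, 7 and 8 of the 10 members had an immune class as their highest. The classes ranked differ by library, so these counts are not comparable. In p25OE 40 weeks only melanotrophs, somatotrophs and macrophages held at least 50 cells. The 8 of WT 14 weeks include Il6, with 3 molecules in macrophages. The share over all features was not computed.

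**Figure D2:**
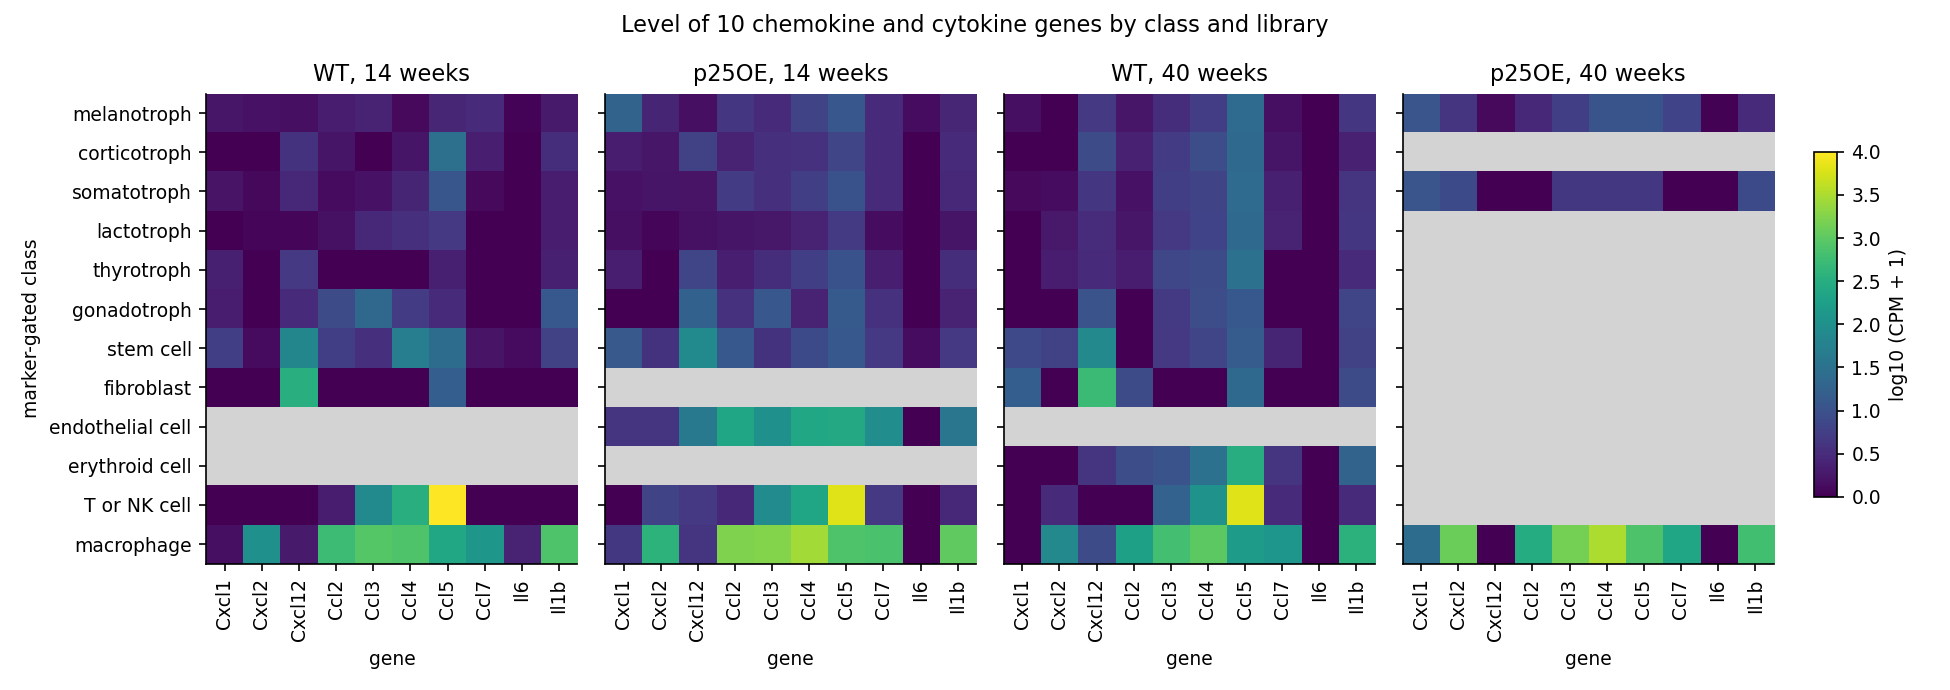
Level of each member (columns) by marker-gated class (rows) in the 4 libraries, coloured by log10(CPM + 1) of summed UMIs, with grey for classes under the minimum; shown are classes with at least 50 cells in the library. Macrophage-gated cells lead for Cxcl2, Ccl2, Ccl3, Ccl4, Ccl7 and Il1b in all 4 libraries, and T or NK cells lead for Ccl5 in the 3 libraries that held enough of them.

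In macrophages at 14 weeks, 6 of the 7 members tested (those with at least 10 UMIs in both libraries together) were called higher in p25OE and 0 lower. The background was 3.17% of 11513 features higher and 1.95% lower. Ccl7 was 5.41-fold higher, Cxcl2 3.82-fold, Ccl4 3.63-fold, Ccl5 3.27-fold, Ccl2 3.0-fold and Ccl3 2.03-fold. Il1b, from 1666 and 2488 molecules, had a ratio of 1.35 and was called neither. The median of the 7 log2 ratios was 1.71, against -0.01 over all features. The cells came from 2 clusters in both libraries, one holding 454 WT and 384 p25OE cells and the other, shallower one holding 93 and 266.

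At 40 weeks, 4 of 9 members tested were higher in p25OE macrophages and 1 was lower, against a background of 6.02% higher and 5.03% lower of 9965 features. The median log2 ratio was 0.84, against -0.07. Cxcl2 was 13.7-fold higher, Ccl5 3.70-fold and Ccl4 2.56-fold, and Cxcl1 was at least 10.7-fold higher (0 and 17 UMIs). Ccl2, at 1.27, and Ccl7, at 1.40, were called neither, unlike at 14 weeks; the difference between the ages was not tested. Cxcl12 was at least 2.12-fold lower against the floor of 3 counts (12 and 0 UMIs), and its exact interval reached 1.47-fold lower. Different clusters held the gated macrophages: 345 and 274 WT cells lay in 2 clusters, and 144 of the 170 p25OE cells lay in another one. These p25OE cells also read 308 CPM of Pcsk2 and 17.7 CPM of Pax7, melanotroph genes, against 99.9 and 3.08 CPM in WT; their part in the ratios was not tested. With plain CPM in place of the scaling, Ccl3 passed as well (2.28 against 1.80), and 82.8% of all calls were higher in place of 54.5%.

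Ccl5 was a T and NK cell gene. These cells read 9758 CPM in WT 14 weeks, 6460 in p25OE 14 weeks and 6308 in WT 40 weeks. The T and NK ratio at 14 weeks was 0.653, called neither. In p25OE 40 weeks, which held 10 such cells, macrophages had the highest level, 760 CPM. Ccl4, also made by T cells, had a ratio of 0.687 in T and NK cells at 14 weeks and was called neither.

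Il6 was nearly absent. The 4 libraries held 7, 10, 2 and 6 Il6 molecules, and melanotrophs held 1, 7, 0 and 4. It had too few molecules for a ratio in any class, so a difference was not detectable at this depth.

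In melanotrophs at 14 weeks, 5 of 9 members tested were higher in p25OE and 0 lower, where 9.39% of 16141 features were higher and 3.36% lower. Their median log2 ratio was 1.33, against 0.06 over all features. Besides Cxcl1 and Cxcl2, these were Ccl4 at 17.6-fold (3 and 105 UMIs; interval 5.85 to 86.5), Ccl5 at 5.77-fold (18 and 207; 3.56 to 9.93) and Ccl2 at 2.51-fold (12 and 60; 1.34 to 5.12). Cxcl12, Ccl3, Ccl7 and Il1b had ratios of 0.903, 1.22, 0.873 and 1.56 and were called neither. For Ccl4, 2 cells held at least 50% of the p25OE molecules, and 1 of them held 39. For Ccl5, 5 cells held at least 50% of the p25OE molecules, and 1 of them held 34.

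At 40 weeks, 3 of 9 members tested were higher in p25OE melanotrophs and 3 lower, where 7.3% of 16808 features were higher and 8.28% lower. Their median was 0.81, against -0.01. The higher ones were Cxcl1, Cxcl2 and Ccl7, the last at 8.39-fold (2 and 287 UMIs; interval 2.3 to 69.6). The lower ones were Cxcl12, Ccl5 at 3.14-fold (99 and 539 UMIs; ratio 0.318, 0.257 to 0.399) and Il1b at 2.14-fold (14 and 112; ratio 0.468, 0.268 to 0.884). Ccl2, Ccl3 and Ccl4 had ratios of 1.95, 1.43 and 1.75. Plain CPM shifts all log2 ratios up by 0.39 at 40 weeks and 0.21 at 14 weeks. Ccl4 then reached 2.31 at 40 weeks, 4 members were called higher and 2 lower, and 74.0% of all calls were higher in place of 46.9% (86.6% in place of 73.6% at 14 weeks). Of the 9, Cxcl1 and Cxcl2 were higher at both ages, and with plain CPM also Ccl4.

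**Figure D3:**
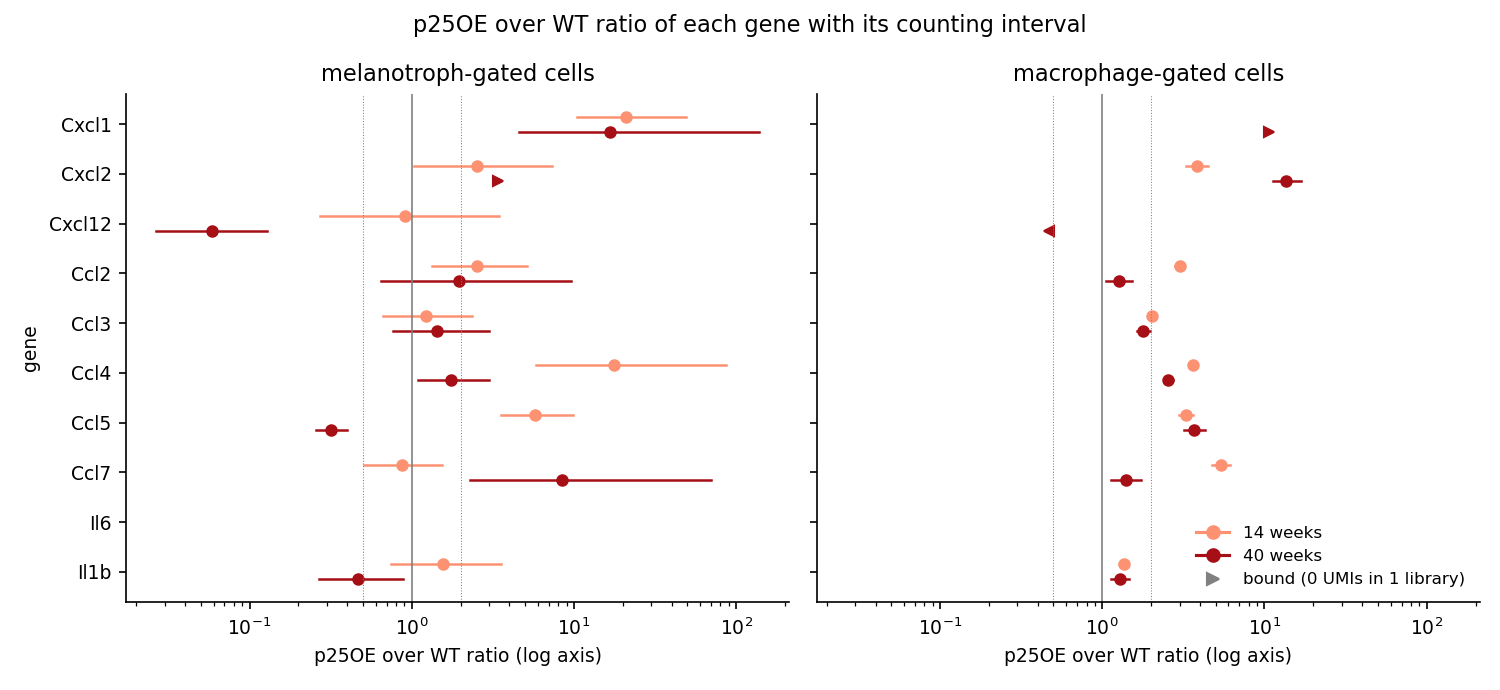
Ratio of p25OE over WT for each member in melanotroph-gated and macrophage-gated cells at 14 and 40 weeks, on a log axis. Lines are exact 95% counting intervals, triangles are bounds where 1 library held 0 molecules, and genes not tested have no mark. Cxcl1 in melanotrophs stands at 20.9 and 16.7, and Ccl5 in melanotrophs stands at 5.77 at 14 weeks and 0.318 at 40 weeks.

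The low levels of the other members in melanotrophs were set beside those of macrophage markers, since droplets carry free RNA and some hold more than 1 cell. All 7 macrophage markers were detected in melanotroph-gated cells. Their summed level was 65.9, 94.5, 279 and 106 CPM, which is 0.247, 0.330, 1.26 and 0.527% of the level in macrophages. On the assumption that RNA of one source keeps its genes in one ratio, a reference level was set. A member's level in melanotrophs was divided by its level in macrophages times that percentage. Single markers departed from the summed percentage, with ranges of 0.196 to 2.87%, 0.293 to 1.95%, 0.577 to 4.38% and 0.329 to 2.93%. Ccl3 came to 0.672, 0.351, 0.293 and 0.580 of this reference level, and Il1b to 0.483, 0.482, 0.709 and 0.645. Ccl2 came to 0.813, 0.592, 0.304 and 1.16, and Ccl4 to 0.145, 0.608, 0.343 and 0.585. These levels were at or below what the summed macrophage markers gave in each library, apart from Ccl2 in p25OE 40 weeks. The part of macrophage RNA in their ratios was not tested.

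Cxcl1 was not set against macrophages, which held 1, 8, 0 and 17 molecules of it. Ccl7 came to 6.65 in WT 14 weeks, 0.932 and 0.3 in p25OE 14 weeks and WT 40 weeks, and 4.48 in p25OE 40 weeks. In p25OE 40 weeks melanotrophs held 62.5% of the library's Ccl7. They held 54346890 of its 60662506 UMIs, the total taken before the cell filters. Single macrophage markers ranged from 0.196 to 2.87% of their macrophage level in melanotrophs of WT 14 weeks and from 0.329 to 2.93% in those of p25OE 40 weeks, and Ccl7, at 1.64 and 2.36%, lay inside both ranges. Cxcl2 came to 2.26, 1.29, 0 and 0.474.

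**Figure D4:**
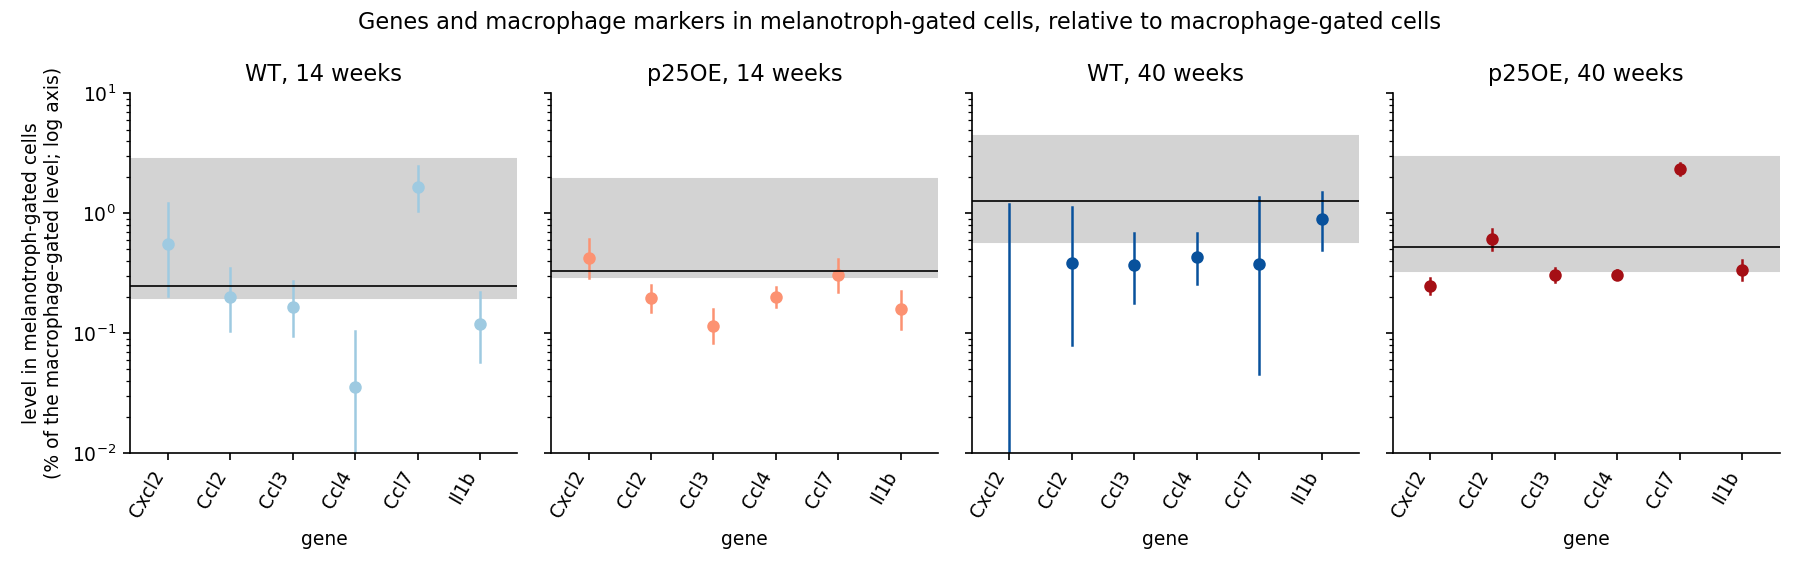
Level of 6 members in melanotroph-gated cells as a percentage of their level in macrophage-gated cells of the same library, on a log axis, with counting intervals of the melanotroph level. The line is the summed macrophage markers (0.247, 0.330, 1.26 and 0.527%) and the grey band the range over the single markers; Ccl3, Ccl4 and Il1b lie under the line in all 4 libraries, and Ccl7 lies above it, inside the band, in WT 14 weeks and p25OE 40 weeks.

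Ccl5 in melanotrophs was at 0.0171, 0.173 and 0.376% of its T and NK cell level in WT 14 weeks, p25OE 14 weeks and WT 40 weeks. The 6 T and NK markers, taken singly, ranged from 0 (Klrd1) to 1.34%, from 0.0453 to 2.42% and from 0.242 to 2.13% of theirs. The highest was Trbc2 each time, and Cd3e, Cd3d and Trac together were at 0.181, 0.17 and 0.412%. In WT 40 weeks Ccl5 read 23.7 CPM in melanotrophs, 21.9 in corticotrophs, 23.7 in somatotrophs and 22.1 in lactotrophs, a like level in 4 endocrine classes whose macrophage markers were at 1.26, 1.58, 1.62 and 1.54% of the macrophage level. In p25OE 40 weeks, 8 melanotroph-gated cells held at least 50% of the 539 molecules and 1 held 135. The 6 T and NK markers had 7000 UMIs in these 6411 cells, 6885 of them of Trbc2, 42 of Nkg7, 38 of Trac, 20 of Cd3d, 9 of Cd3e and 6 of Klrd1.

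The melanotroph comparison was repeated in cells without a molecule of any macrophage marker or of Cd3e, Cd3d and Trac, an alternative chosen after the values were seen. It left 376, 1284, 165 and 3366 cells. Their median UMIs per cell were 15525, 7868.5, 2755 and 5963.5, against 17114.5, 8482, 6432 and 7151 in all melanotrophs. The cells left were thus shallower, most of all in WT 40 weeks, so the libraries are not compared at like depth. Cxcl1 was then 19.4-fold higher in p25OE at 14 weeks (6 and 246 UMIs) and at least 2.08-fold higher at 40 weeks (0 and 272), with CPM of 0.949, 20.1, 0 and 12.6. Ccl4 was 5.43-fold and Ccl5 3.99-fold higher at 14 weeks. At 40 weeks Ccl7 had a ratio of 2.34 (1 and 102 UMIs) and was called neither. Its p25OE level was 4.73 CPM, against 5.28 CPM in all p25OE melanotrophs of that age, and its WT level rested on 1 molecule. Cxcl2, with 0 and 55 molecules (2.55 CPM in p25OE), had no fold. The smaller WT sum puts the floor of 3 counts above that level. In all, 4 members were higher at 14 weeks, and 1 was higher and 1 lower at 40 weeks. Leaving out the highest cell of each library gave Cxcl1 ratios of 26.4 and 32.9. WT lost 2 of 8 molecules at 14 weeks and 1 of 2 at 40 weeks, and p25OE lost 18 of 334 and 10 of 572. The larger WT loss raises both ratios.

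In the other classes at 14 weeks, calls went both ways. Somatotrophs of p25OE had higher Ccl2 (13.2-fold), Ccl7 (7.98), Ccl3 (4.40) and Ccl4 (2.83) and lower Cxcl12 (ratio 0.331), where 3.62% of features were higher and 2.78% lower. Their Ccl2, Ccl3 and Ccl4 were 0.25, 0.141 and 0.161% of the macrophage level in that library, and their macrophage markers were at 0.364%. Stem cells had higher Ccl7 (6.07; 2 and 10 UMIs; interval 1.29 to 57.0), Cxcl1 and Ccl2 (2.67) and lower Ccl4 (0.137) and Ccl5 (0.483), where 2.69% were higher and 2.3% lower. Here 1 WT cell held 165 of the 168 Ccl4 molecules, and without the highest cell of each library the Ccl4 ratio was 6.07, now higher in p25OE; the Ccl5 ratio, with 48 of 83 WT molecules in 1 cell, was then 0.971. Corticotrophs had higher Ccl3 (at least 3.56-fold) and Ccl4 (3.92; 3 and 11 UMIs; interval 1.03 to 21.9) and lower Ccl5 (0.208), where 3.84% were higher and 1.39% lower. Of the 123 WT molecules of Ccl5, 116 lay in 1 cell, and without the highest cell of each library the ratio was 3.36, higher in p25OE.

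Lactotrophs at 14 weeks had 1 member lower, Ccl3 (ratio 0.469; 60 and 14 UMIs), of 6 tested; 1 WT cell held 27 of the 60, and without the highest cells the ratio was 0.792, called neither. In lactotrophs 6.24% of features were higher and 1.49% lower. Gonadotrophs, with 60 and 113 cells, had higher Cxcl12 (7.49-fold; 2 and 12 UMIs; interval 1.67 to 68.9) and Ccl5 (5.62; 2 and 9; 1.16 to 53.4) and lower Il1b (0.113; 11 and 1; 0.0026 to 0.781; 8 of the 11 in 1 cell), where 4.32% were higher and 3.02% lower. T and NK cells had 0 of 3 members called, where 2.99% were higher and 2.72% lower, and thyrotrophs had no member with enough molecules, where 2.14% were higher and 2.7% lower. At 40 weeks the 52 somatotrophs of p25OE had lower Ccl5 (0.109; 345 and 1 UMIs; interval 0.0028 to 0.613), where 3.33% were higher and 1.97% lower. Among cells in no class, 5 of 9 members were higher and 0 lower at 14 weeks, where 7.13% of features were higher and 2.65% lower, and 1 of 9 was higher and 5 lower at 40 weeks, where 12.2% were higher and 13.7% lower.

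Related genes were taken from lists of other chemokines, other cytokines, receptors and inhibitors, NF-κB feedback genes and targets, and immediate early genes that respond to tissue dissociation. Of 16 other chemokines tested in melanotrophs at 14 weeks, 6 were higher and 5 lower in p25OE; the median log2 ratio was -0.04, against 0.06 over all features. For every list in melanotrophs the background is the one given above, 9.39% higher and 3.36% lower at 14 weeks and 7.3% and 8.28% at 40 weeks. Cxcl10, a ligand of Cxcr3, was 23.7-fold higher (3 and 142 UMIs; interval 7.96 to 117), Ccl12 5.52-fold (12 and 132) and Ccl11, an eosinophil attractant, 5.39-fold (4 and 43). Ccl24, Ccl8 and Cxcl9 were lower, with ratios of 0.0557 (9 and 1 UMIs; 0.0013 to 0.402), 0.0669 (15 and 2; 0.0074 to 0.288) and 0.22. Of the 17 tested at 40 weeks, 3 were higher and 6 lower; the median was -0.90, against -0.01. Ccl11 was 11.6-fold higher (1 and 199 UMIs; 2.07 to 462), Cxcl14, a chemokine of epithelia, 4.0-fold (234 and 15992), and Ccl22 at least 3.33-fold (0 and 171). Ccl12, Cxcl13 and Ccl8 were lower, with ratios of 0.0845, 0.0881 and 0.236.

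Of 12 other cytokines tested at 14 weeks, 6 were higher and 0 lower (median log2 ratio 1.21). Il12a, which encodes the smaller subunit of interleukin-12, was 17.1-fold higher (1 and 34 UMIs; interval 2.86 to 693). Tgfb1 was 3.84-fold and Spp1, which encodes osteopontin, 3.51-fold higher. Of the 17 tested at 40 weeks, 2 were higher and 2 lower (median -0.42). Il12a was at least 4.89-fold higher (0 and 251 UMIs) and Tslp, an epithelial cytokine, at least 2.11-fold (0 and 108). Il33 and Spp1 were lower, with ratios of 0.117 and 0.248. In p25OE 40 weeks, melanotrophs held 100% of the 171 Ccl22 and 89.0% of the 282 Il12a molecules of the library. They also held 54346890 of its 60662506 UMIs, the total taken before the cell filters. The Il12a share was thus not above their share of all UMIs.

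Among receptors and inhibitors, 2 of 12 tested at 14 weeks were higher and 0 lower, and 1 of 16 at 40 weeks was higher and 4 lower. Socs3, an inhibitor of signalling by the Il6 receptor family, was higher at both ages, 3.93-fold (1408 and 11039 UMIs) and 2.40-fold (483 and 19819). Ccr1, Ccr2 and Lifr, the receptor of Lif, were lower at 40 weeks, with ratios of 0.136 (3 and 7 UMIs; interval 0.0312 to 0.818), 0.0585 (5 and 5) and 0.294. Cxcr2, the receptor of Cxcl1 and Cxcl2, had 46, 56, 42 and 48 molecules per library.

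Of 22 NF-κB feedback genes and targets, 2 were higher and 2 lower at 14 weeks (median log2 ratio 0.10). Vcam1 was 2.61-fold and Nfkbia, the inhibitor of NF-κB, 2.08-fold higher. Birc3 and Tnfaip3 were lower, with ratios of 0.376 and 0.46. At 40 weeks 2 of 22 were higher and 1 lower (median -0.06). Birc3 was 6.55-fold higher (1 and 112 UMIs; interval 1.15 to 261) and Zc3h12a, which degrades cytokine transcripts, 4.12-fold higher. Nfkbie was lower, with a ratio of 0.473. At 14 weeks 18 of the 22 and at 40 weeks 19 were called neither, so the shares called higher were near the background of all features.

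Of 16 immediate early genes, 8 were higher and 1 lower at 14 weeks (median log2 ratio 1.01), and 2 were higher and 2 lower at 40 weeks (median 0.42). Egr2 was 16.1-fold, Jun 7.69-fold and Zfp36 4.33-fold higher at 14 weeks, and Jun was 2.93-fold and Jund 2.03-fold higher at 40 weeks. Dusp1 was lower at both ages, with ratios of 0.437 and 0.456, and Junb was lower at 40 weeks, with 0.472. With plain CPM the lower calls of Dusp1 (0.506 and 0.6), Junb (0.62), Tnfaip3 (0.533) and Nfkbie (0.622) were lost. Jun was higher at both ages, as was Cxcl1, and the part of these genes in the Cxcl1 ratio was not tested.

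In macrophages at 14 weeks, 2 of 14 other chemokines were higher and 1 lower, 4 of 13 other cytokines were higher and 0 lower, and 0 of 22 NF-κB feedback genes and targets were higher and 1 lower, where 3.17% of all features were higher and 1.95% lower. Their median log2 ratios were -0.12, 0.55 and -0.02. At 40 weeks 5 of 22 NF-κB feedback genes and targets were higher and 0 lower (median 0.42), as were 4 of 10 other cytokines (median 0.81), and 4 of 14 other chemokines were higher and 3 lower (median 0.43), where 6.02% of all features were higher and 5.03% lower. Receptors and inhibitors had 1 of 11 higher and 0 lower at 14 weeks and 2 of 10 higher and 1 lower at 40 weeks. Immediate early genes had 3 of 15 and 3 of 14 higher and 0 lower (medians 0.60 and -0.03).

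Over 34 sums of a class in a library, the features whose log2(CPM + 1) followed each member most closely differed by source. For Cxcl1 they were Trip13 (Pearson r = 0.72), Sp8 (0.72) and Tmprss6 (0.71), well under the likeness of the macrophage members. Ccl3 went with Ms4a6c (0.95), Cd86 and Lair1, Il1b with Clec4a3 (0.96), C3ar1 and Dppa3, and Ccl4 with Tnfaip8l2 (0.95), Glipr1 and Ccl3. Ccl2 went with Csf2rb2 (0.94), Tlr2 and Unc93b1, Ccl7 with Clec4a1 (0.94), Lyl1 and Ifi204, and Cxcl2 with Pilra (0.93), Clec9a and Il27. Ccl5 went with AW112010 (0.95), Cd52 and Cst7, and Cxcl12 with Timp3 (0.90), Myl9 and Pdpn. The sums share libraries and differ in depth, so the coefficients are descriptions.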

How the data were processed

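Whole-number UMI counts per gene and barcode, deposited by the authors, were used; they were made with Cell Ranger 3.0.2 against mm10, per the submitters' processing notes (3.0.1 per the file headers). Barcodes with at least 500 genes and at most 20% mitochondrial UMIs were kept. A cell entered a class if its best marker score reached 0.2 and the second was at most 0.75 of it. Of the melanotroph-gated cells, 27, 106, 73 and 308 lay within 10% of the limit, in the report's order of libraries. No doublet caller was run; leaving out the 6% of cells with the most UMIs was an alternative. Median UMIs per melanotroph-gated cell were 17114.5, 8482, 6432 and 7151. UMIs were summed per library and class and scaled by median-of-ratios factors over genes with at least 20 UMIs in each library; levels are unscaled CPM. Exact 95% intervals of ratios of Poisson counts cover counting error only. Features with at least 10 UMIs in both libraries together were tested, and a floor of 3 counts replaced a count of 0. Folds given as at least a value rest on this floor and do not include counting error. The members and lists were chosen with earlier results of these data known. List genes were named as the 3 called genes with the highest and the 3 with the lowest ratio per list and age in melanotrophs, and for each member the 3 features with the highest r; Cxcr2, and the values of Cxcr4 and Cxcl14 outside this rule, were chosen after their values were seen. Ccl19 and Ccl21a (repeated symbols) and Cxcl11 were not used here. The calls were tried on Poisson counts simulated for melanotrophs from a shared profile. Of 2.5-fold changes, 93.0% were called at 14 weeks and 82.3% at 40 weeks, and of unchanged features 0.482% and 0.606%. The simulation held no spread between cells, animals or libraries, so these shares are not the error rates of the real data. Python 3.11.15, numpy 2.4.6, scipy 1.17.1, pandas 2.3.3 and scanpy 1.11.5 were used.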

Additional observations from a re-analysis of the deposited data

Results flagged for a closer look

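Ccl5 in melanotrophs went opposite ways at the 2 ages, with a ratio of p25OE over WT of 5.77 at 14 weeks and 0.318 at 40 weeks, and the difference between the ages was not tested. Its level was 1.67 and 11.2 CPM at 14 weeks and 23.7 and 9.92 CPM at 40 weeks, so WT 40 weeks had the highest of the 4 levels. Without cells holding a macrophage or T cell marker the ratios were 3.99 and 0.13.

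Cells that passed no gate, a mixture outside the comparisons of named classes, also held the members. At 14 weeks Ccl7 (16.7), Cxcl1 (8.58), Ccl2 (4.78), Ccl4 (3.81) and Ccl3 (2.35) had higher levels in p25OE, where 7.13% of features were higher. At 40 weeks Cxcl1 was 34.2-fold higher, where 12.2% were higher. Ccl4 went the other way there, with a ratio of 0.463, and the difference between the ages was not tested. The number of such cells was 1035 and 1472 in the younger and 2718 and 974 in the older mice, WT first.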

How the results depend on the processing

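No paired analysis was possible because each group is 1 library. Over 13 alternative settings, 480 values of melanotrophs and macrophages were recomputed. Of these, 424 stayed within their counting interval or within 1.5 times of a count, 56 moved beyond it and 0 reversed. Only ratios called higher or lower under the main settings could count as reversed. Of 236 recomputed called ratios, 220 were still called in the same direction. Ratios that an alternative left untested or without a fold are not in these totals. Without cells holding a macrophage or T cell marker, the melanotroph counts at 40 weeks dropped to 1 higher and 1 lower; fewer cells enter. The single lower call in macrophages at 40 weeks, Cxcl12, became 0 under plain CPM, at least 30 UMIs, at least 1000 genes per barcode, a wider gate margin, and without the highest cell of each library. Otherwise the melanotroph counts ranged from 4 to 5 higher and 0 lower at 14 weeks and from 3 to 4 higher and 2 to 3 lower at 40 weeks, and the macrophage counts from 5 to 6 and from 3 to 5 higher. In the other classes, leaving out the highest cell of each library kept 20 of 29 calls, turned 2 (stem cell Ccl4 to a log2 ratio of 2.60 and corticotroph Ccl5 to 1.75, both at 14 weeks), made 3 neither and left 4 with too few molecules. Between 6 and 8 members had an immune class highest. With classes of at least 20 cells, Cxcl2 was highest in neutrophils in WT 40 weeks and in monocytes or dendritic cells in p25OE 14 weeks. In p25OE 14 weeks, Ccl2 and Cxcl12 were then highest in fibroblasts. Cxcl12 had stem cells, not fibroblasts, highest in the WT libraries with a 10% mitochondrial limit, 1000 genes or the wider margin. Only classes of at least 50 cells are ranked, and WT fibroblasts held 51 cells at 14 weeks and 53 at 40 weeks. These settings can therefore drop fibroblasts from the ranking, so the change need not be one of level. With thinning to 500 UMIs, Cxcl1 was seen in 0.39% and 0.608% of p25OE melanotrophs. Depth limits Il6 at both ages and WT 40 weeks, where Cxcl1 rests on 2 molecules.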
